A study of Homo sapiens with 4 samples.

Results

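GC-rich peaks outside promoters were the peaks whose 200 bp hg38 window, placed on the centre of the deposited interval, held at least 70% G or C, and whose interval lay more than 3000 bp from the transcription start site (TSS) of every transcript of GENCODE release 44. They numbered 6367 of the 104156 peaks of 4 lists and covered 4234 distinct regions once overlapping members of different lists were joined. The lists came from anti-GFP ChIP-seq in the human breast cancer line MDA-MB-231. Its cells carried Smad2 or Smad3 with the gene's own control elements on a bacterial artificial chromosome (BAC), fused at the C-terminus to a LAP tag, of which GFP is a part. LAP-Smad2 and LAP-Smad3 cells were left untreated or were treated with 10 ng/mL TGFβ-1 for 2 h, with 1 library for each of the 4 conditions. Both lines were transfected populations selected with Geneticin and sorted for GFP, they kept their endogenous Smads, and no untagged cells were analysed here. With 1 library per condition there was no test between conditions, and no difference between lists had a replicate check. The bracketed ranges are 95% intervals (Wilson for shares, order statistics for medians) and cover counting error over peaks or tiles only. The lists hold no read totals, so the depth behind each is unknown, and the length of a list can depend on it.

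The labels of the untreated libraries and the deposited names of their lists give opposite Smads, so both lists are called by their labels and no direction was drawn from them. Within 100 kb of SMAD2, a gene carried by the LAP-Smad2 BAC, there were 27 peaks of the LAP-Smad2 TGFβ-1 list, 4 of LAP-Smad3 TGFβ-1, 2 of the library labelled LAP-Smad2 untreated and 20 of the library labelled LAP-Smad3 untreated. Around SMAD3 the counts were 1, 53, 0 and 1 in the same order. The library labelled LAP-Smad3 untreated thus had many peaks at SMAD2 and 1 at SMAD3, which goes against its label. None of the GC-rich peaks outside promoters lay within 100 kb of SMAD3, and 4 lay near SMAD2, of which 2 were in the library labelled LAP-Smad3 untreated.

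Smad2 and Smad3 are carried into the nucleus with Smad4 after TGFβ receptor signalling. The DNA-binding domain of Smad3 contacts the short Smad box and GC-rich variants of it, while the common form of Smad2 binds DNA poorly by itself because of an additional exon. In vertebrate genomes CpG is rare because methylated cytosine is readily lost by mutation, and unmethylated promoters keep their CpGs as CpG islands. GC-rich sequence away from promoters also occurs in repeats, such as the tandem-repeat part of SVA retrotransposons and some long terminal repeats of endogenous retroviruses. Reads from near-identical copies cannot be placed uniquely, so the position of a peak in such sequence is uncertain.

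Most of the members carried 1 of 2 recurrent sequences, found as 12-base words present in at least 2% of the distinct regions. Word group 1 held GAAGTGAGGAGC, present in the windows of 1588 of the 4234 regions, and CCCCCACCTCCC, present in 1233. These words and their flanks read like the GC-rich tandem repeat of SVA elements. By the tandem measure given below, however, only 5.56% of word group 1 members of LAP-Smad2 TGFβ-1 and 5.13% of LAP-Smad3 TGFβ-1 counted as tandem repeats. Word group 2 held AGGCAGCTAAGG, TCTCCCTCCACA, GGTCCCCCAGCA and GGACCTGCAGCC, found in the windows of 380, 299, 357 and 360 regions, which read like the LTR12 long terminal repeats of the HERV9 family. No repeat annotation was used, and no window was assigned to an element. Windows that lacked both word groups and had no listed second copy are shown here. In the first 2 no 31-mer was repeated in hg38, so the position of their peaks does not depend on a choice between copies in hg38. The second lies 77102 bp from SMAD2, a gene carried by the LAP-Smad2 BAC, and copies on that BAC were not examined. Every CpG is in capitals in the single-copy window with the highest −log10 q of the LAP-Smad3 TGFβ-1 list and in that of the library labelled LAP-Smad3 untreated, which lies near SMAD2.
Single-copy, LAP-Smad3 TGFβ-1, chr4:182806458-182806657, plus strand, between genes: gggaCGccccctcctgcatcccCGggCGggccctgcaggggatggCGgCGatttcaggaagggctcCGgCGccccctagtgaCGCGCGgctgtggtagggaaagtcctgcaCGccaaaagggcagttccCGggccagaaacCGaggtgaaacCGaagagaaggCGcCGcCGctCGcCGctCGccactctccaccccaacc
Single-copy, LAP-Smad3 untreated by label, chr18:48008148-48008347, plus strand, between genes: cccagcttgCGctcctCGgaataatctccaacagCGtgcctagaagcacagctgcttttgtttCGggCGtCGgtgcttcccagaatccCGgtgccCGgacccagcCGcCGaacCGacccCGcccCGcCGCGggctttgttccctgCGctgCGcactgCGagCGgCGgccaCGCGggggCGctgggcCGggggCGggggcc
They hold 20 and 25 CpGs, with a CpG observed over expected of 0.818 and 0.967. The remaining window, in which 76.5% of 31-mers were repeated in hg38, belonged to the region with the highest −log10 q in the LAP-Smad2 TGFβ-1 list among those with a peak of every list, and the 7 bases that are not G are in capitals.
Region of all 4 lists, chr2:32916263-32916462, plus strand, intron of LINC00486: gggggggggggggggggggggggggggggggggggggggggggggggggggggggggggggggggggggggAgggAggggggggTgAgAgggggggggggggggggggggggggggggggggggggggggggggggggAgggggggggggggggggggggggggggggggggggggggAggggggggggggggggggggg

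GC-rich sequence outside promoters took a larger share of the LAP-Smad2 TGFβ-1 list than of the LAP-Smad3 TGFβ-1 list. The share was 10.5% (10.1 to 10.9), or 2816 of 26828 peaks, for LAP-Smad2 TGFβ-1, and 1.52% (1.43 to 1.62), or 950 of 62551, for LAP-Smad3 TGFβ-1. It was 20.7% (20 to 21.5), or 2333 of 11266, for LAP-Smad2 untreated by label and 7.63% (6.80 to 8.56), or 268 of 3511, for LAP-Smad3 untreated by label. All 4 shares exceeded the 0.122% of 200 bp tiles of hg38 that meet the same rule, by 86.4 times for LAP-Smad2 TGFβ-1 and by 12.5 times for LAP-Smad3 TGFβ-1. The gap between the TGFβ-1 lists remained at equal length: among the 3511 peaks of highest −log10 q, the share was 11.2% and 1.57%.

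**Figure D1:**
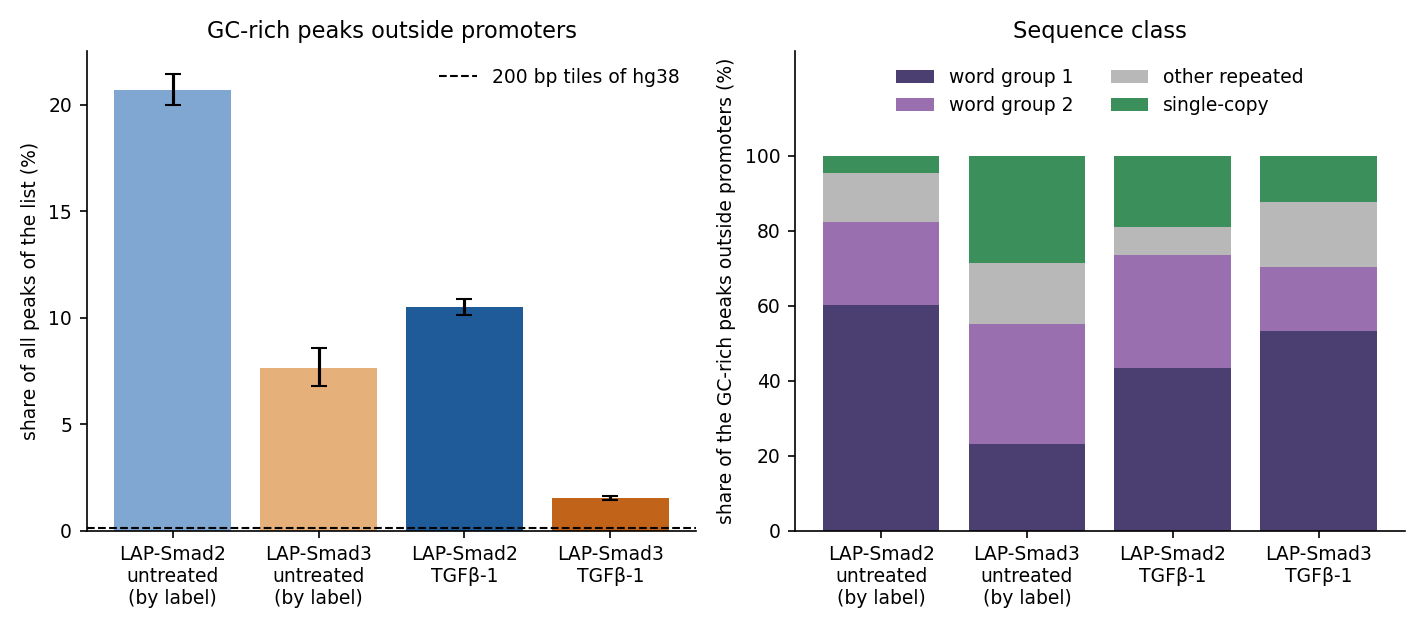
Share of each list's peaks that are GC-rich and outside promoters (left, %, error bars are Wilson 95% intervals, dashed line the 0.122% of hg38 tiles) and split of those peaks into 4 sequence classes (right, % of the members of each list). The share is 10.5% for LAP-Smad2 TGFβ-1 and 1.52% for LAP-Smad3 TGFβ-1, and the word groups hold 73.7% of members for LAP-Smad2 TGFβ-1 and 70.4% for LAP-Smad3 TGFβ-1.

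The split between promoters and the rest differed between the TGFβ-1 lists in another way. GC-rich peaks of any place made up 28.3% of the LAP-Smad2 TGFβ-1 list and 2.65% of the LAP-Smad3 TGFβ-1 list. Among these GC-rich peaks, 37.1% lay outside promoters for LAP-Smad2 TGFβ-1 and 57.4% for LAP-Smad3 TGFβ-1, beside 26.1% of GC-rich tiles. Among the peaks outside promoters, 18.3% and 2.26% were GC-rich, beside 0.148% of tiles. At the threshold, 225 LAP-Smad2 TGFβ-1 and 101 LAP-Smad3 TGFβ-1 members had exactly 70% GC, and 252 and 89 peaks outside promoters had 69.5%. The nearest member to a TSS lay 3013 bp and 3003 bp away, and the farthest GC-rich peak left out lay 2999 bp and 2995 bp away.

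By peak strength the members of the TGFβ-1 lists were not uniform. For LAP-Smad2 TGFβ-1 there were 0 members among the 100 peaks of highest −log10 q and 51 among the 1000 highest, which is 5.1% (3.90 to 6.64) beside the 10.5% of its whole list. Its members nonetheless had a higher median rank by −log10 q than its other peaks, at the 53.4th against the 47.9th percentile. For LAP-Smad3 TGFβ-1 there were 2 members among the 100 highest and 21 among the 1000 highest, or 2.1% (1.38 to 3.19), with an interval that holds the 1.52% of its whole list. Its members had a median rank at the 46.5th percentile and its other peaks at the 50.4th. The authors' fold enrichment over local background had a median of 4.04 for LAP-Smad2 TGFβ-1 members and 3.97 for its other peaks. For LAP-Smad3 TGFβ-1 it was 4.66 for members and 4.97 for other peaks. Members were wider, with a median width of 308 bp against 246 bp for LAP-Smad2 TGFβ-1 and 265 bp against 239 bp for LAP-Smad3 TGFβ-1. These scores are not on a common scale between lists.

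Word group 1 was the most frequent of the 4 sequence classes in both TGFβ-1 lists. A window was put in a word group when at least 1 word lay within 500 bp of its centre, in the group with more words. Otherwise it was called other repeated when another alignment in hg38 matched at least 180 of its 200 bases or when at least 50% of its 31-mers occurred more than once, and single-copy when neither held. Of the LAP-Smad2 TGFβ-1 members, 43.5% (1224) were in word group 1, 30.2% (850) in word group 2, 7.21% (203) other repeated and 19.1% (539) single-copy. The LAP-Smad3 TGFβ-1 members gave 53.4% (507), 17.1% (162), 17.2% (163) and 12.4% (118). By label, LAP-Smad2 untreated had 1404, 514, 306 and 109 members in them and LAP-Smad3 untreated 62, 86, 43 and 77. GC-rich promoter peaks had another make-up: for LAP-Smad2 TGFβ-1, 76.2% of them were single-copy and 7.17% were in word group 1, and for LAP-Smad3 TGFβ-1, 36.5% and 19.1%. The words were chosen for recurring in the members' own windows. Their frequency in members and their lower share at promoters were thus in part fixed by the choice.

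Relative to the genome, both word groups were well covered by LAP-Smad2 TGFβ-1 peaks. Of the 4976 GC-rich tiles outside promoters in word group 1, 45.5% (44.1 to 46.9) had their centre in a LAP-Smad2 TGFβ-1 peak and 16.8% (15.8 to 17.9) in a LAP-Smad3 TGFβ-1 peak. Of the 2967 tiles in word group 2, 40.2% (38.5 to 42.0) and 6.94% (6.08 to 7.91) did. The 9905 tiles with neither word group were covered at 9.92% (9.35 to 10.5) and 4.27% (3.89 to 4.69). The library labelled LAP-Smad2 untreated covered the 3 kinds of tile at 46.3%, 24.0% and 7.09%, and the library labelled LAP-Smad3 untreated at 1.51%, 3.44% and 1.48%. A peak of at least 1 list covered 70.5%, 53% and 17.8% of them. The words were chosen because they recur among the members, so that a higher coverage of tiles with them than without was in part fixed by the choice. Since LAP-Smad2 TGFβ-1 has more members than LAP-Smad3 TGFβ-1, the choice also favours its coverage, and the gap between the lists in the word groups is a description. In tiles with neither word group the LAP-Smad2 TGFβ-1 coverage was the higher as well.

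**Figure D2:**
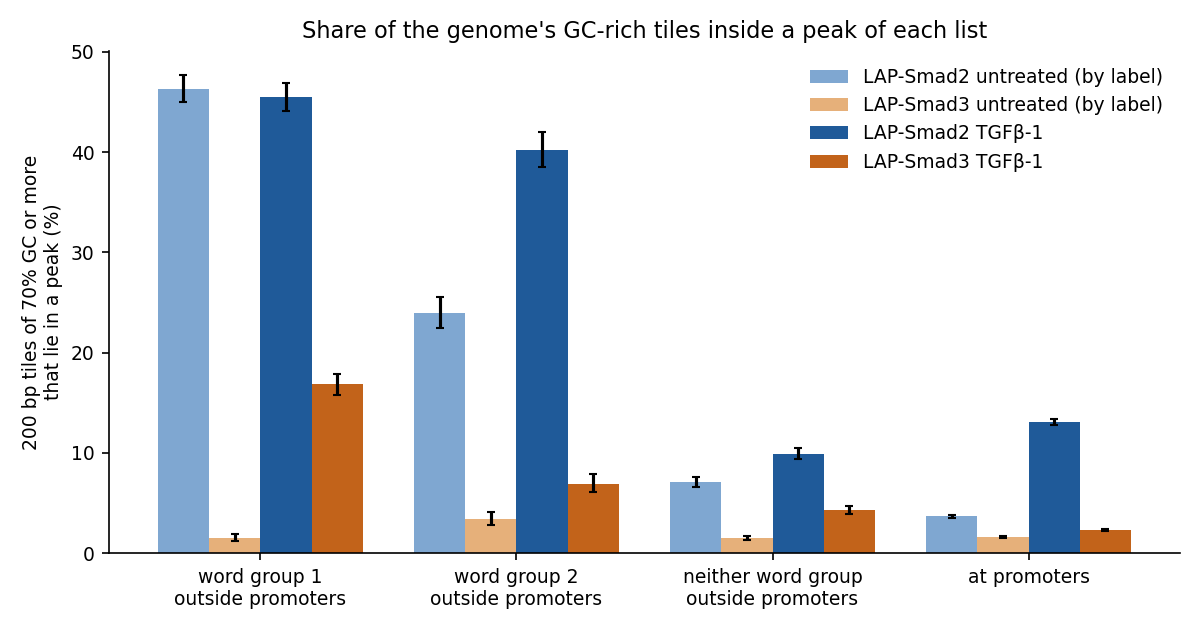
Share of the 200 bp tiles of hg38 with at least 70% GC whose centre lies in a peak (%, bars by list, error bars are Wilson 95% intervals over tiles), for tiles outside promoters by word group and for the 50646 GC-rich tiles at promoters. In word group 1 the LAP-Smad2 TGFβ-1 bar is at 45.5% and the LAP-Smad3 TGFβ-1 bar at 16.8%, and at promoters they are at 13.1% and 2.30%.

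Coverage is given here by the number of copies of the leading word, as a description, since this word was chosen for being the most frequent in the members' own windows. Of the 145 word group 1 tiles that lacked GAAGTGAGGAGC within 500 bp and had only the other word, 8.97% (5.31 to 14.7) lay in a LAP-Smad2 TGFβ-1 peak, against 40.8% of the 157 tiles with 1 copy of it, 48.1% of the 1049 with 2 or 3 and 46.4% of the 3625 with 4 or more. For LAP-Smad3 TGFβ-1 the same steps gave 3.45%, 15.9%, 14.4% and 18.1%. The choice of the word favours a gap between 0 copies and 1 copy, and the later steps did not form a steady rise. In word group 2, tiles with AGGCAGCTAAGG were covered at 45.3% and those without it at 32.8% by LAP-Smad2 TGFβ-1 peaks, and at 8.14% and 5.18% by LAP-Smad3 TGFβ-1 peaks.

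Members had fewer CpGs than GC-rich promoter peaks of the same list. CpG observed over expected, which is 1 when CpG is as frequent as the C and G content allows, had a median of 0.543 (0.539 to 0.549) in LAP-Smad2 TGFβ-1 members and of 0.805 (0.797 to 0.812) in its GC-rich promoter peaks. LAP-Smad3 TGFβ-1 gave 0.549 (0.541 to 0.561) and 0.653 (0.632 to 0.667). The library labelled LAP-Smad2 untreated gave 0.569 and 0.662, and that labelled LAP-Smad3 untreated gave 0.585 and 0.816. Tiles of the same GC had 0.562 outside promoters and 0.833 at promoters, so that the members lay near the genome's own value for such sequence. The promoter median was higher on 23 of the 23 chromosomes with at least 10 peaks of each kind for LAP-Smad2 TGFβ-1 and on 21 of 23 for LAP-Smad3 TGFβ-1. At the ratio of 0.6 often used for CpG islands, 32.6% of LAP-Smad2 TGFβ-1 members passed against 82.7% of its GC-rich promoter peaks, and 36.3% against 59.1% did for LAP-Smad3 TGFβ-1.

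**Figure D3:**
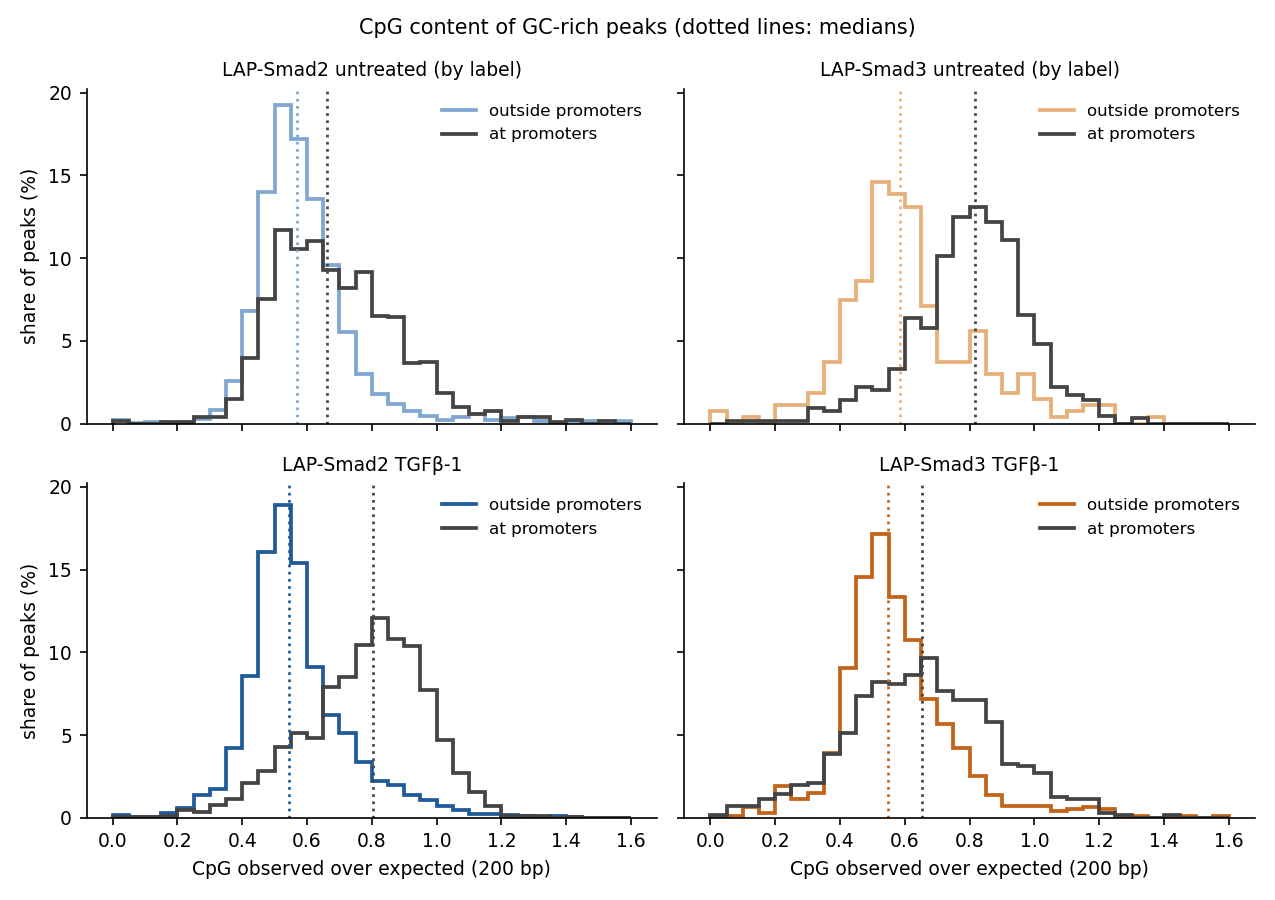
CpG observed over expected (x axis, no unit, values above 1.6 in the last bin) against the share of peaks (y axis, %) in bins of 0.05, for GC-rich peaks outside promoters (coloured) and at promoters (dark), 1 panel per list, dotted lines at the medians. The highest bin of the members is 0.50 to 0.55 in every panel, and the LAP-Smad2 TGFβ-1 medians lie at 0.543 and 0.805.

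Much of the low CpG lay in the word groups. Word group 1 windows had a median GC of 79.0% and a CpG observed over expected of 0.521 in the LAP-Smad2 TGFβ-1 list, and word group 2 windows 72% and 0.554. Other repeated windows had 0.682, and single-copy windows had 0.649 (0.620 to 0.684), still below the 0.833 of single-copy promoter peaks. For LAP-Smad3 TGFβ-1 the 4 classes had 0.536, 0.567, 0.733 and 0.476. Its 118 single-copy members, with an interval of 0.410 to 0.564, lay below the single-copy members of LAP-Smad2 TGFβ-1 and below the 0.654 of tiles with neither word group. Without both word groups in members and promoter peaks alike, the promoter median exceeded that of members by 0.162 for LAP-Smad2 TGFβ-1 and by 0.0658 for LAP-Smad3 TGFβ-1, compared with 0.262 and 0.104 over all classes.

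Nearly all members lay between genes or in introns, in about equal parts for LAP-Smad2 TGFβ-1 and with more in introns for LAP-Smad3 TGFβ-1. For LAP-Smad2 TGFβ-1, 47.3% (45.4 to 49.1) were between genes, 46.9% in introns, 4.15% in coding exons and 0.852% in untranslated regions. For LAP-Smad3 TGFβ-1 the shares were 43.3% (40.1 to 46.4), 53.2% (50 to 56.3), 1.68% and 0.947%, and for tiles of the same rule 44.3%, 43.5%, 9.0% and 1.93%. The untreated lists had 45.4% and 48.5% between genes, and LAP-Smad2 untreated by label had 51.3% in introns. The median distance from a member to the nearest TSS was 13444 bp for LAP-Smad2 TGFβ-1 and 12032 bp for LAP-Smad3 TGFβ-1, beside 11125 bp for tiles. Members of all classes together were less often near chromosome ends than tiles, with 10.9% and 20% within 5 Mb of an end, beside 30.7% of tiles. These pooled values depend on the mix of classes. Word group 1 members were at 4.33% and 6.31%, beside 6.43% of such tiles, and word group 2 members at 4.35% and 6.17%, beside 5.93%. For LAP-Smad3 TGFβ-1 both word groups were thus near their tiles.

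The place of the members went with their sequence class. In LAP-Smad2 TGFβ-1, 58.8% of word group 1 members were in introns and 60.8% of word group 2 members between genes, close to the 57.3% and 61.8% of tiles of these groups. Coding exons held 1 of the 1224 word group 1 members, 0 of the 850 word group 2 members (at most 0.450% by the interval) and 107 of the 539 single-copy members, which is 19.9% (16.7 to 23.4) beside 16.0% of tiles with neither word group. For LAP-Smad3 TGFβ-1, coding exons held 9 of 118 single-copy members, or 7.63% (4.06 to 13.9). Its single-copy members also lay closer to chromosome ends, with 55.9% (46.9 to 64.6) within 5 Mb of an end against 24.1% (20.7 to 27.9) for LAP-Smad2 TGFβ-1 and 50.3% of tiles with neither word group. Tiles with neither word group were not scored for copies and can include repeated sequence. The leading word of group 1 ran on the strand of the surrounding protein-coding gene in 20.9% (181 of 864) of regions, close to the 19.5% of tiles. That of group 2 did so in 48.3% (72 of 149), beside 52.3%. Only regions and tiles in protein-coding genes of 1 strand, with the word mostly on 1 strand, were counted.

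**Figure D4:**
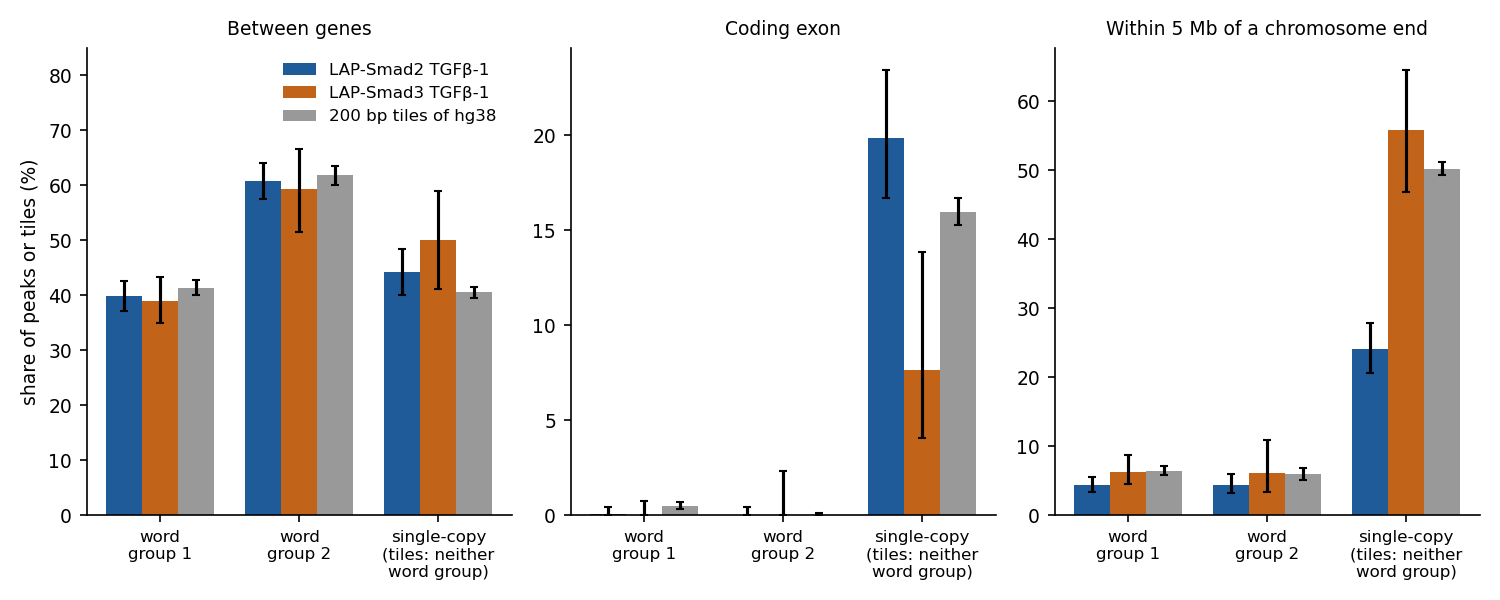
Share of members of the TGFβ-1 lists and of hg38 tiles (%, error bars are Wilson 95% intervals) between genes, in coding exons and within 5 Mb of a chromosome end, by sequence class. Beside single-copy members stand tiles with neither word group, which were not scored for copies and can include repeated sequence. Coding exons hold 19.9% of the single-copy members of LAP-Smad2 TGFβ-1 and 7.63% of those of LAP-Smad3 TGFβ-1, while word groups are near 0% in all 3 sets.

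Members often had a near-identical copy elsewhere. Another alignment matching at least 90% of the window was found for 50.3% (1416) of LAP-Smad2 TGFβ-1 members and 66.9% (636) of LAP-Smad3 TGFβ-1 members, and for 74.3% and 38.4% in the libraries labelled LAP-Smad2 and LAP-Smad3 untreated. GC-rich promoter peaks had a copy in 18.0% for LAP-Smad2 TGFβ-1 and 54.5% for LAP-Smad3 TGFβ-1, and peaks outside promoters under 70% GC in 34.7% and 26.4%. These shares are lower limits, because the aligner skips its most frequent seeds. In word group 1, 63.8% of LAP-Smad2 TGFβ-1 members had a listed copy, and 95.6% had at least 50% of their 31-mers more than once in hg38. For word group 2 the values were 56.8% and 51.9%. The count of 31-mers includes repeats within the window itself, so it does not give how many copies were missed. By 31-mers, 63.6% and 81.5% of the members of LAP-Smad2 TGFβ-1 and LAP-Smad3 TGFβ-1 were repeated, beside 66.2% and 68.3% of their peaks outside promoters under 70% GC. By this measure LAP-Smad2 TGFβ-1 members were thus no more repeated than its other peaks outside promoters. Tandem repeats, with at least 80% of bases equal at a shift of 3 to 100 bp, made up 5.61% and 10.9% of members. They were 36.9% and 44.8% of the other repeated class, but 5.56% and 5.13% of word group 1. The most frequent unit was 49 bp for LAP-Smad2 TGFβ-1 (38 of 158) and 40 bp for LAP-Smad3 TGFβ-1 (19 of 104).

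Overlap between the lists was uneven in the 2 directions. A LAP-Smad3 TGFβ-1 peak overlapped 657 of the 2816 LAP-Smad2 TGFβ-1 members, or 23.3% (21.8 to 24.9), against a background of 24.5% of all peaks of that list. In the other direction 559 of the 950 LAP-Smad3 TGFβ-1 members, or 58.8% (55.7 to 61.9), overlapped a LAP-Smad2 TGFβ-1 peak, against 10.6% of all its peaks. The former is near its background, so it gives no excess of the members over the list as a whole. That list mixes unlike sets. Among them, GC-rich promoter peaks overlapped in 8.99% (8.22 to 9.84) and peaks outside promoters under 70% GC in 30.9% (30.1 to 31.7). The latter share, 58.8%, is well above its background of 10.6%. GC-rich promoter peaks of LAP-Smad3 TGFβ-1 also overlapped LAP-Smad2 TGFβ-1 far above that background, in 42.4% (38.8 to 46.1), or 299 of 705, so that much of the excess was also seen at promoters. Its peaks outside promoters under 70% GC did so in 9.75%. When both lists were held to 26828 peaks the shares were 10.4% and 56.0%. The share over all peaks at that length is not given, so neither value can be set against a background.

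The untreated lists showed a similar spread beside their backgrounds. Of LAP-Smad2 TGFβ-1 members, 46.3% overlapped the library labelled LAP-Smad2 untreated (background 14.1%) and 6.96% the one labelled LAP-Smad3 untreated (9.25%). Of LAP-Smad3 TGFβ-1 members, 69.2% overlapped the former (7.27%) and 5.16% the latter (1.10%). Members of the library labelled LAP-Smad2 untreated overlapped LAP-Smad2 TGFβ-1 in 63.4% (33.3%), LAP-Smad3 TGFβ-1 in 40.8% (39.9%) and the library labelled LAP-Smad3 untreated in 5.02% (6.12%). Members of the library labelled LAP-Smad3 untreated overlapped LAP-Smad2 TGFβ-1 in 74.6% (71.3%), LAP-Smad3 TGFβ-1 in 21.6% (19.4%) and the library labelled LAP-Smad2 untreated in 36.2% (19.7%). Of these, the members exceeded their background most in LAP-Smad3 TGFβ-1 against the library labelled LAP-Smad2 untreated. GC-rich promoter peaks of LAP-Smad3 TGFβ-1 overlapped that library in 44.7% (41.0 to 48.4), so that much of the excess was also seen at promoters. Its single-copy members did so in 4.24% (1.82 to 9.54), which is not above the background. For LAP-Smad2 TGFβ-1 against the same library, GC-rich promoter peaks were at 10.6% and single-copy members at 4.27%.

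Overlap between the TGFβ-1 lists was higher in word group 1 than in single-copy members in both directions. LAP-Smad2 TGFβ-1 members of word group 1 overlapped a LAP-Smad3 TGFβ-1 peak in 36.2% (33.5 to 38.9), those of word group 2 in 15.5% (13.3 to 18.1), other repeated in 28.1% (22.3 to 34.6) and single-copy in 4.64% (3.16 to 6.76). LAP-Smad3 TGFβ-1 members overlapped LAP-Smad2 TGFβ-1 in 71.4% (67.3 to 75.2), 71% (63.6 to 77.4), 35.6% (28.6 to 43.2) and 20.3% (14.1 to 28.5). Over all 4 lists, a member in at least 2 lists was found for 50.5% (48.3 to 52.8) of the 1866 distinct regions of word group 1, 36.3% of 1098 of word group 2, 31.9% of 496 other repeated and 7.75% (6.07 to 9.85) of 774 single-copy regions. Of the 4234 regions, 2674 were members in 1 list, 1166 in 2, 367 in 3 and 27 in 4, and no single-copy region was among the last. Such counts were not made over all peaks joined across the lists, so those of the regions have no background beside them.

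**Figure D5:**
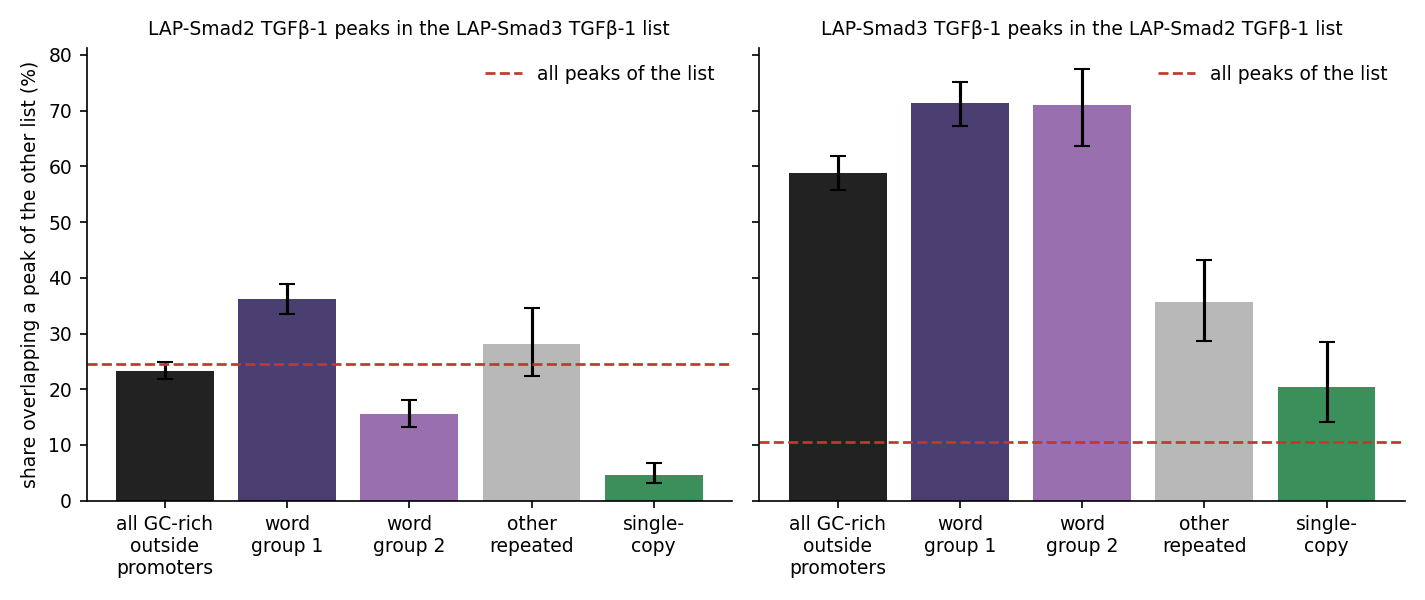
Share of GC-rich peaks outside promoters of each TGFβ-1 list that overlap a peak of the other TGFβ-1 list by at least 1 bp (%, error bars are Wilson 95% intervals), over all members and by sequence class, with the share over all peaks of the list dashed. The left panel has 23.3% beside a background of 24.5%, the right panel 58.8% beside 10.6%, and single-copy members are the lowest bar in both.

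The most frequent pattern among distinct regions was a member in LAP-Smad2 TGFβ-1 only, with 1468 regions, of which 480 were single-copy. There were 234 regions with a member in LAP-Smad3 TGFβ-1 only, of which 103 were single-copy, and 95 with members in both TGFβ-1 lists and no other, of which 9 were single-copy. A further 734 regions were members in LAP-Smad2 TGFβ-1 and the library labelled LAP-Smad2 untreated. In 317 regions both of these and LAP-Smad3 TGFβ-1 had a member. LAP-Smad2 TGFβ-1 also has the most members of the 4 lists. Of its 2816 members, 45.7% (43.8 to 47.5) overlapped no peak of any other list, beside 63.1% of all its peaks, and of the 950 LAP-Smad3 TGFβ-1 members 17.8% (15.5 to 20.3) did, beside 85.1%. Members were thus less often without a partner than the peaks of their lists as a whole. Only-in patterns rest on calls at the peak threshold and were not tested.

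Motifs were counted on both strands of the 200 bp windows, with the share of tiles under the same rule as background. The Smad box CAGAC was in 33.1% of LAP-Smad2 TGFβ-1 members, 47.4% of LAP-Smad3 TGFβ-1 members and 34.6% of tiles. The palindromic GTCTAGAC was in 0 members of the 4 lists and in 0.0168% of tiles. The GC-rich Smad motif GGCGC was in 73.0%, 66.2% and 64.8%, and GGCCG in 85.1%, 81.1% and 77.0%. The GC box GGGCGG, bound by Sp factors, was in 65.8%, 69.4% and 62.0%, the E-box CANNTG in 48.8%, 42.0% and 48.2%, CCCTC in 87.0%, 86.0% and 80.7%, and runs of 4 G tracts able to form a quadruplex in 43.0%, 41.2% and 42.3%. The palindromic NRF1-like motif was in 1.07%, 0.421% and 2.15%. Motifs can overlap each other, and a match is a run of letters and not a site.

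The share of CAGAC depended on the class. Word group 1 members held it in 52.5% (49.7 to 55.3) for LAP-Smad2 TGFβ-1 and in 70.4% (66.3 to 74.2) for LAP-Smad3 TGFβ-1, beside 61.0% of word group 1 tiles. Word group 2 members held it in 6.47% and 6.79%, beside 7.99% of tiles. Single-copy members held it in 33.6% (29.7 to 37.7) and 39.0% (30.7 to 48.0), with intervals that overlap. GGGCGG was in 99.5% of word group 1 members of LAP-Smad2 TGFβ-1 and in 98.1% of word group 1 tiles, and CANNTG in 72.1% of its word group 2 members and 71.9% of the tiles.

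Among single regions of the LAP-Smad2 TGFβ-1 list, the strongest without a listed copy was the guanine run shown above. It lay at chr2:32916136-32916590, in an intron of the non-coding gene LINC00486. Its window had 96.5% GC, and every list had a peak there, with a fold enrichment of 10.9 for LAP-Smad2 TGFβ-1, 3.65 for LAP-Smad3 TGFβ-1, 8.38 for LAP-Smad2 untreated by label and 8.23 for LAP-Smad3 untreated by label. At chr12:127165884-127166308, in an intron of ENSG00000286016, a single-copy window with a CpG observed over expected of 1.12 had a LAP-Smad2 TGFβ-1 peak of fold 10.9 and overlapped a peak of all 3 other lists. It was the 1 single-copy window among the 37 LAP-Smad2 TGFβ-1 members that overlapped all 3. How many of all LAP-Smad2 TGFβ-1 peaks did so was not computed, so the 37 is not a result about the members. The others shown by the highest −log10 q among these 37 members were chr2:132360972-132361434, with GPR39 as its nearest protein-coding gene, chr21:8218598-8219810, 6632 bp from the ribosomal RNA gene RNA5-8SN2, and chr7:155350185-155350860, 51962 bp from INSIG1, all other repeated.

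Other strong members without a listed copy also had peaks in further lists. At chr22:12693323-12694125, on the short arm, LAP-Smad2 TGFβ-1 had a single-copy member with a fold of 4.98, and both untreated lists had a peak there too. LAP-Smad3 TGFβ-1 had a member of fold 10.8 at chr16:458264-458717 in an intron of RAB11FIP3, an effector of Rab11 in endosome recycling, with a low CpG observed over expected of 0.391, where LAP-Smad2 TGFβ-1 and LAP-Smad3 untreated by label had a peak as well. It had another of fold 9.82 at chr1:219544988-219546261, in word group 1, where peaks of LAP-Smad2 TGFβ-1 and of LAP-Smad2 untreated by label also lay. In the library labelled LAP-Smad3 untreated the strongest was chr18:48007792-48008704, 77102 bp from the start of SMAD2, with a fold of 2.79, and LAP-Smad2 TGFβ-1 had a peak there as well.

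Of the 4234 regions, 1633 lay in 1 or more of 1274 protein-coding genes, beside 7954 of the 17848 tiles under the same rule. Of the 1274 genes, 305 held at least 2 regions. PTPRN2, a receptor-type tyrosine phosphatase of dense-core vesicles on chromosome 7, held 18 regions, of which 13 were other repeated and 5 single-copy, and it has 113 tiles that meet the rule. The members in it numbered 9 for LAP-Smad2 TGFβ-1 and 8 for LAP-Smad3 TGFβ-1. EPPK1, which encodes the plakin epiplakin with its long internal repeats, held 8 regions on 36 tiles, all other repeated. MAP4, a microtubule-associated protein gene, held 7 on only 11 tiles, with 6 in word group 1, and WDR70 held 6 on 10 tiles, all in word group 1. MAD1L1, a spindle checkpoint gene, held 6 on 36 tiles and shares them with the overlapping ENSG00000286192. Among gene families, zinc finger genes whose symbol starts with ZNF held 34 regions in 29 genes, 2.08% of the regions in genes, beside 2.40% of tiles, and collagen genes held 9 in 7 genes, 0.551% beside 0.775%. FOX and FGF genes held 4 regions each, on 19 and 13 tiles, PAX genes 2 (PAX5 and PAX7) on 17 and PCDH genes 2 on 29. TBX genes held 1 (TBX3) on 11 tiles and WNT genes 1 (WNT8B) on 22. HOX, GATA, SOX, LHX, NKX, DLX and sine oculis homeobox genes held 0, on 4, 9, 1, 11, 4, 1 and 1 tiles. With so few tiles these counts of 0 are not a result.

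In the TGFβ pathway, 19 of 44 listed genes had a region inside them or within 100 kb of their start, in 27 pairs of gene and region, where hg38 offers 124 tiles. Over the genome there were 4234 regions and 17848 tiles, a like proportion. Of the 28 pathway genes with at least 1 such tile, 67.9% (49.3 to 82.1) had a region, beside 57.9% of the 10123 protein-coding genes with a tile, so that the list lay near its background. The other 16 had no tile and no region, among them the ligand TGFB2, the receptors TGFBR1, TGFBR2 and TGFBR3, SMAD1, SMAD5 and SMAD9, the co-repressor SKIL and the target JUNB. Tiles without a region lay near the ligand TGFB1 (4), SMAD3 (1), SMAD4 (4), the co-repressor SKI (12) and the target ID1 (2). Near the ligand TGFB3 there were 2 regions of word group 1 in an intron shared by TTLL5 and IFT43. The Nodal antagonists LEFTY1 and LEFTY2 shared 1 region of word group 2, NODAL had 1 of word group 1 in an intron of EIF4EBP2, and INHBB, an activin subunit, had 1 single-copy region. LTBP1, which holds TGFβ in latent complexes, had 4, including the guanine run, and LTBP4 had 1 of word group 1.

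The inhibitory Smad genes had single-copy regions. SMAD6, an inhibitor of the pathway, had a LAP-Smad3 TGFβ-1 member at chr15:66654732-66654987, 47376 bp from its start, with 70% GC and a fold of 4.97. A LAP-Smad2 TGFβ-1 member at chr15:66655066-66655299, with 77.0% GC and a fold of 4.27, did not overlap it. SMAD7, the feedback inhibitor of TGFβ receptors, had a LAP-Smad2 TGFβ-1 member of fold 4.19 at chr18:48975316-48975542, 24464 bp from its start, and a member of the library labelled LAP-Smad3 untreated overlapped it. BAMBI, a pseudoreceptor, and SMURF2, a ubiquitin ligase for Smads and receptors, each had 1 region of word group 1. The transcriptional repressor TGIF1 had a LAP-Smad2 TGFβ-1 member at chr18:3498975-3499406 in a coding exon of DLGAP1. PMEPA1, a TGFβ-induced inhibitor of Smad activation, had a LAP-Smad2 TGFβ-1 member in its own coding exon at chr20:57652109-57652348 with a fold of 2.97, besides 1 region of word group 2.

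Among the target genes, CDKN1A, the gene of the cell cycle inhibitor p21, had a LAP-Smad2 TGFβ-1 member at chr6:36660786-36661136, 15499 bp from its start, with a fold of 3.52 and a CpG observed over expected of 0.916, which a member of the library labelled LAP-Smad3 untreated overlapped. A LAP-Smad3 TGFβ-1 member lay at chr6:36742144-36742343 in an untranslated region of CPNE5, and LAP-Smad2 TGFβ-1 had a peak there too. CDKN2B, the gene of p15, had 1 region of word group 2, only in the library labelled LAP-Smad2 untreated. ID2, a dominant inhibitor of helix-loop-helix factors, had a LAP-Smad2 TGFβ-1 member of fold 4.51 at chr2:8693383-8693703 and another region in the library labelled LAP-Smad2 untreated, both single-copy, and ID3 and ID4 had 1 region each in word groups 1 and 2.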

How the data were processed

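Anti-GFP ChIP-seq of MDA-MB-231 cells with LAP-Smad2 or LAP-Smad3 was analysed from 4 deposited peak lists, 1 per library. The authors used Bowtie2 to place the single-end reads on hg38, and MACS2, with reads lengthened to 200 bp and a q-value limit of 0.05, to find peaks. Per the labels, bedtools was also used, but its role, all versions, the control library, filters and the handling of reads with several placements are not given in the sources used here. The fold enrichment deposited for each peak is a ratio to the local background, and its p-value and q-value are −log10 values as the authors deposited them. The summit offset is the other deposited column used. Depth per library is unknown.

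Windows of 200 bp and tiles of hg38 were read with pysam 0.24.0. CpG observed over expected is the CpG count times the window length over the product of the C and G counts. Places come from GENCODE release 44 at the centre of the interval. Copies were sought in hg38 without alternative sequences with minimap2 2.31-r1302 (k 15, w 5, at most 200 further alignments), which skips its most frequent seeds, and by counting 31-mers. Overlap means at least 1 bp. Intervals are Wilson 95% intervals, or order-statistic intervals for medians.

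The members, gene lists and motifs were chosen with earlier results of these data known, and the words after the sequences had been seen. Strong members were named among those without a listed copy and off chromosome 8. These were the 3 of each TGFβ-1 list and the 1 of each untreated list with the highest −log10 q. Also named were up to 5 members with a peak of every list and members within 100 kb of a TGFβ pathway gene. The 5 genes with most regions were named too. Alternatives were other GC minimums, windows, TSS distances, q-values, list lengths and definitions of overlap, copies and genes. On simulated data with known answers, 15 of 15 checks of the functions passed. With 1 library per condition no test was made. No genome-wide repeat annotation was used. The result for 1 gene of the pathway list and the windows of the word groups are not reported here.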

Additional observations from a re-analysis of the deposited data

Results flagged for a closer look

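In 4 results the LAP-Smad2 and LAP-Smad3 lists moved in opposite directions between untreated and TGFβ-1 by the sample labels, by more than the Wilson intervals allow. These differences were not tested, since there is 1 library per condition, and they rest on the untreated lists, whose labels and deposited names disagree. The share of members with another copy in hg38 changed by -24.0 percentage points for LAP-Smad2 and by 28.5 for LAP-Smad3, a difference of 52.5. If the untreated lists are read by their deposited names, the changes are 11.9 and -7.33.

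For word group 1 the share changed by -16.7 and 30.2 percentage points, a difference of 46.9, and by the deposited names by 20.3 and -6.81. For word group 2 it changed by 8.15 and -15.0, a difference of -23.2, and by the deposited names by -1.90 and -4.98. For single-copy members it changed by 14.5 and -16.3, a difference of -30.8, and by the deposited names by -9.59 and 7.75. In 3 of these 4 results both signs turn with the reading of the names, and for word group 2 the signs are then the same in both lines. No direction of change with TGFβ-1 can therefore be given for the sequence classes.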

How the results depend on the processing

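Values are given for LAP-Smad2 TGFβ-1, then for LAP-Smad3 TGFβ-1, where both moved by more than their interval. The share of peaks that are GC-rich and outside promoters became 22.3% and 5.76% at a GC minimum of 65%, 4.34% and 0.523% at 75%, 7.44% and 1.01% with 400 bp windows, 12.6% and 1.87% at 1 kb from a TSS, 6.54% and 0.876% at 10 kb, 14.7% and 2.17% with protein-coding TSSs only, and 5.22% and 0.502% without another copy. For LAP-Smad2 TGFβ-1 it was 11.2% in its 3511 top peaks. LAP-Smad2 TGFβ-1 stayed above LAP-Smad3 TGFβ-1 in all of these.

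The median CpG observed over expected became 0.513 and 0.466 at 65% GC, 0.528 and 0.520 at 75%, and 0.565 and 0.565 with protein-coding TSSs only. At 65% and 75% GC the median of LAP-Smad2 TGFβ-1 was the higher. In the main setting it was the lower, at 0.543 against 0.549, so the order of the lists depended on the setting. For LAP-Smad2 TGFβ-1 it was 0.538 on the summit, 0.536 with 400 bp windows and 0.537 at 10 kb. For LAP-Smad3 TGFβ-1 it was 0.635 in its top peaks and 0.522 without another copy.

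Overlap with the other TGFβ-1 list fell to 10.2% and 29.1% with a mutual overlap of 50%, 9.66% and 25.8% with summits within 100 bp, and 12.9% and 48.7% without another copy, and for LAP-Smad2 TGFβ-1 to 10.4% with lists of equal length. The stricter overlap takes fewer pairs by construction. Shares over all peaks are not given for these settings, so these values have no background beside them. By 31-mers, 63.6% and 81.5% of members were repeated. With protein-coding spans only, 61.8% and 59.9% lay between genes.

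Alternatives chosen after seeing the data left out both word groups. The share was then 2.77% and 0.449%, the median 0.666 and 0.643, the overlap 11.1% and 29.2%, and 43.9% of LAP-Smad2 TGFβ-1 members lay between genes. The median of LAP-Smad2 TGFβ-1 was thus the higher without the word groups, while it was the lower in the main setting, at 0.543 against 0.549. The excess of the promoter median over that of members stayed positive in every list and setting. Of 70 values, 26 stayed within their interval and 44 moved. These 70 are shares and medians, which cannot be negative, so a change of sign was not possible for them. The causes of the moves were not tested. The depth of the libraries is unknown, and with 1 library per condition neither leaving out a library nor a paired analysis was possible.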

Other observations

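The make-up of the members of the untreated lists is given here as values by label, with no direction of change with TGFβ-1, because of the conflict over their names. In the library labelled LAP-Smad2 untreated, 82.2% of the 2333 members were in a word group and 89.2% had mostly repeated 31-mers. The library labelled LAP-Smad3 untreated had 55.2% of its 268 members in a word group and 28.7% single-copy.

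On the short arms of chromosomes 13, 14, 15, 21 and 22 there were 27 members of LAP-Smad2 TGFβ-1, or 0.959% beside 1.01% of all peaks of that list. LAP-Smad3 TGFβ-1 had 19 there, or 2.0% (1.28 to 3.10) beside 0.835%. By label, LAP-Smad2 untreated had 33, or 1.41% beside 1.8%, and LAP-Smad3 untreated 10, or 3.73% beside 3.87%.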
